A study of Homo sapiens with 8 samples.

Results

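The Src-family kinases LCK, LYN, FYN, BLK, FGR, YES1 and SRC were followed together with CSK, the kinase that holds them inactive. A probe set was taken when the platform annotation gave it exactly 1 symbol and that symbol was one of these 8. This rule found 24 probe sets of the 8 genes among 54675 on the array. Of the 24, 14 probe sets reached log2 5 on at least 2 of the 8 arrays and entered the tests, out of 24481 that did so over the whole array. FGR had no probe set among the 14.

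RNA came from Reh, an established human B-precursor line that the design text traces to acute lymphoblastic leukemia, while the sample labels file it under non-Hodgkin lymphoma. There were 4 groups of 2 arrays: cells with CBFA2T3 shRNA and IKKβ(EE) together, cells with CBFA2T3 shRNA alone, cells with IKKβ(EE) alone, and cells with a control shRNA. CBFA2T3 codes for a corepressor of transcription related to ETO, and IKKβ(EE) is a constitutively active form of the IκB kinase β, which frees NF-κB from its inhibitors. All groups are the same single line, and the labels leave unsaid if a control shRNA accompanied IKKβ(EE) given alone. The labels call the arrays of a group biological replicates 1 and 2 without saying what was kept separate, so p-values measure only the spread between these arrays, which may be technical.

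Src-family kinases sit on the inner face of the plasma membrane through a lipid anchor and phosphorylate the cytoplasmic tails of antigen receptors when these are engaged. CSK phosphorylates a tyrosine near their carboxyl end, which folds the kinase shut, and the phosphatase CD45 (PTPRC) removes that phosphate. In B-lineage cells LYN is a main member and acts both in activating and in inhibitory signalling, and BLK is found chiefly in B cells. LCK and FYN are best known for starting T-cell receptor signalling, FGR belongs mainly to myeloid cells, and YES1 and SRC are made in many tissues. The arrays measured RNA, not the phosphorylation that sets the activity of these kinases. Each array pooled many cells, so more cells with an RNA and more of it per cell cannot be told apart.

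The values are log2 probe set intensities, which compare arrays for 1 probe set but not 1 probe set with another. The suffix _s_at marks a probe set whose probes match several transcripts, so that related sequences may add to its signal. The genes targeted by the constructs were read first. CBFA2T3 (probe set 208056_s_at) read 8.23 and 7.83 with both constructs, 8.40 and 8.11 with CBFA2T3 shRNA, 8.91 and 8.89 with IKKβ(EE), and 9.22 and 9.29 with control shRNA. All 4 arrays with the shRNA lay below the others, and against control shRNA the fall passed the test with both constructs (limma adjusted p = 0.00938) and missed it with the shRNA alone (0.0518), where it passed with the replicate number as a block (0.01002). IKBKB (211027_s_at), which encodes IKKβ, read 11.45 and 11.97 with both constructs, 10.85 and 10.39 with IKKβ(EE), 4.43 and 3.60 with CBFA2T3 shRNA, and 3.97 and 4.02 with control shRNA. Its level with both constructs thus lay above that with IKKβ(EE) alone, by 1.09 (limma adjusted p = 0.171, or 0.0714 with the replicate number as a block). The part of this gap in any difference between these groups was not tested. The other IKBKB probe sets showed no such jump and were not called in any comparison. Over the 8 arrays 209341_s_at ranged from 8.47 to 9.18 and 209342_s_at from 6.81 to 7.43. Arrays correlated with each other at 0.978 to 0.995. B-lineage markers, 10 of 11 past the floor, had medians of 11.59 and 11.25 with both constructs, 11.61 and 11.47 with CBFA2T3 shRNA, 11.83 and 11.70 with IKKβ(EE), and 11.64 and 11.88 with control shRNA. The 4 arrays with the shRNA thus lay below the 4 without it, and so did the summed levels, at 14.89 to 15.17 against 15.29 to 15.37 as log2 values. With CBFA2T3 shRNA alone the means of CD22 (9.42), PAX5 (12.26) and IGLL1 (12.16) were not below those with control shRNA (9.32, 12.24 and 12.08). The means of the other B-lineage markers past the floor were lower. The part of the shift in the B-lineage median and sum in the member results was not tested. Only 2 of 10 T-cell markers passed it, CD247 and CD5, and CD3D, CD3E and CD3G did not; of the myeloid markers 2 of 8 did. The difference between 3′ and 5′ probe sets, a sign of RNA quality, was 0.26 to 0.38 for GAPDH and 1.25 to 1.94 for ACTB. For ACTB it was 1.65 and 1.51 with both constructs, 1.52 and 1.81 with CBFA2T3 shRNA, 1.25 and 1.84 with IKKβ(EE), and 1.55 and 1.94 with control shRNA. Replicate 2 was thus higher for ACTB except with both constructs, and for GAPDH except with CBFA2T3 shRNA. The part of RNA quality in the member results was not tested.

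LCK, LYN and CSK were higher when both constructs were present. LCK was also higher with the CBFA2T3 shRNA alone, and no member passed the test with IKKβ(EE) alone. A probe set was called when limma's moderated test, adjusted by Benjamini-Hochberg over all 24481 probe sets, gave an adjusted p under 0.05. With both constructs against control shRNA, 5 of the 14 member probe sets were called, all higher: 1 of LCK, 3 of LYN and 1 of CSK. The share called over all probe sets in this comparison was 8.43%, and the 3 LYN probe sets read the same gene. With CBFA2T3 shRNA against control shRNA 1 of 14 was called, for LCK, where 0.690% of all probe sets were called. With IKKβ(EE) against control shRNA limma called 0 of 14, and 0.229% of all probe sets. An unadjusted p under 0.05 was reached by 1 member probe set, that of BLK, beside 2390 of all 24481 probe sets.

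Arrays of equal replicate number tended to deviate from their group means in the same direction, and a second fit therefore treated the replicate number as a block. In this replicate block fit 6 of 14 members were called with both constructs against control shRNA, beside 23.7% of all probe sets. For CBFA2T3 shRNA against control shRNA the block fit called 5 of 14, 4 higher and 1 lower, beside 7.72% of all probe sets. With IKKβ(EE) against control shRNA it called 0 of 14, beside 3.39% of all probe sets. An unadjusted p under 0.05 was reached there by 6 of the 14, beside 4955 of all 24481 probe sets. The median change of the 14 was 0.32 with both constructs, 0.16 with CBFA2T3 shRNA and 0.19 with IKKβ(EE), against medians of -0.03, 0.01 and -0.03 over all probe sets tested.

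**Figure D1:**
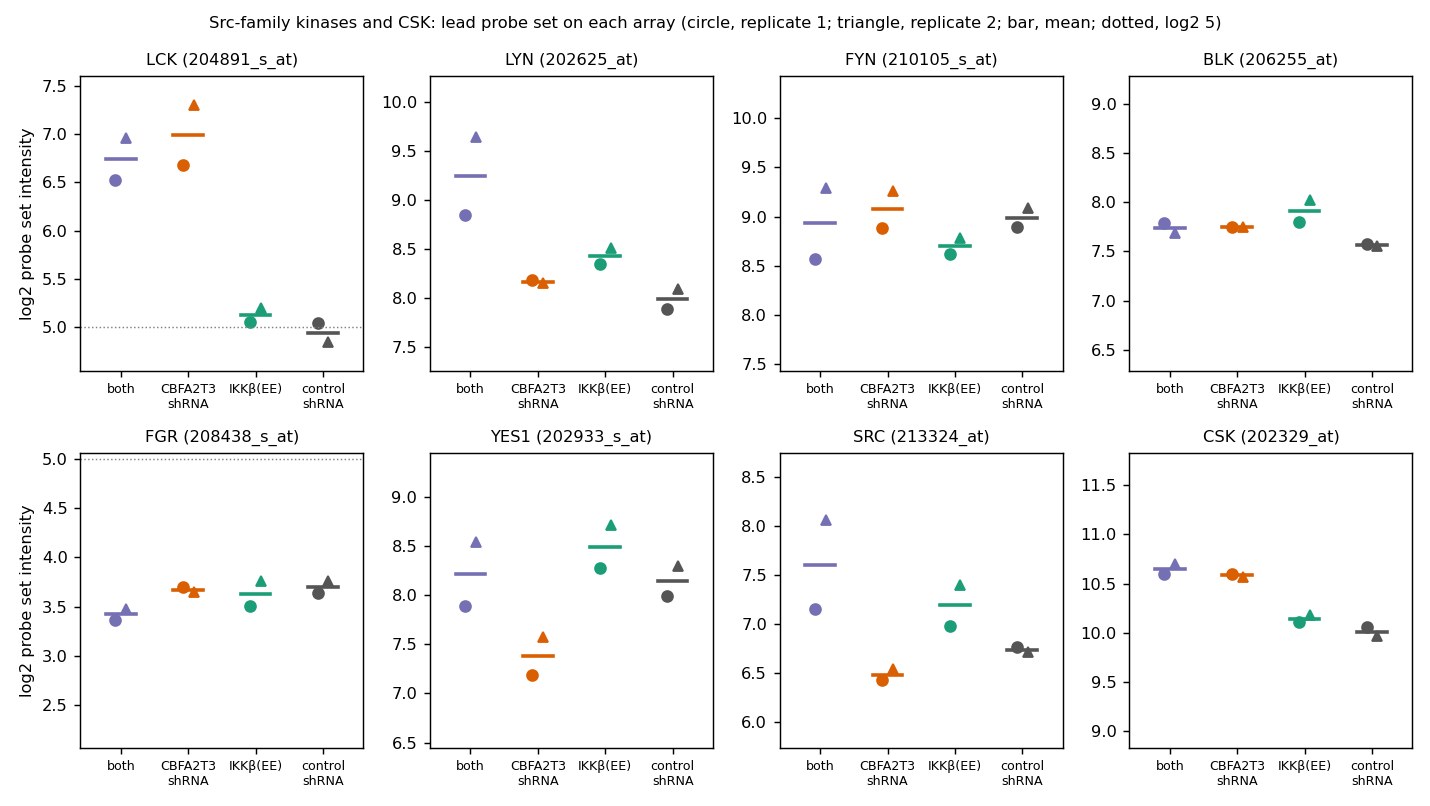
Log2 intensity (y axis) of the lead probe set, the one with the highest mean, of each of the 8 genes in the 4 groups (x axis); circles are replicate 1, triangles replicate 2, bars group means and the dotted line log2 5. LCK and CSK stand high in both groups that carry the CBFA2T3 shRNA, LYN stands highest with both constructs, and FGR stays under log2 5 on every array.

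LCK, the kinase that phosphorylates the T-cell receptor's signalling chains, had the largest change among the members. Its lead probe set 204891_s_at read 6.52 and 6.96 with both constructs, 6.68 and 7.31 with CBFA2T3 shRNA, 5.05 and 5.20 with IKKβ(EE), and 5.04 and 4.85 with control shRNA. The 4 arrays with the shRNA lay well above the 4 without it, the ranges of the both-construct and shRNA groups overlapped, and the groups without the shRNA lay near the floor of log2 5. LCK rose by 2.05 ± 0.23 (SE, 2 arrays a group) with CBFA2T3 shRNA against control shRNA, 4.14-fold, with a 95% interval of 1.51 to 2.59 and a limma adjusted p of 0.0280. With both constructs against control shRNA it rose by 1.80 ± 0.23, 3.48-fold, with an adjusted p of 0.00838. The probe set passed the floor on both IKKβ(EE) arrays too, but the control level is close to background, where log2 values understate folds. The change with IKKβ(EE) alone was 0.18, with an interval of -0.36 to 0.72 and an adjusted p of 0.810.

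Adding the shRNA to cells with IKKβ(EE) gave LCK a change of 1.62 ± 0.23 (adjusted p = 0.0607, or 0.0141 with the replicate block). Adding IKKβ(EE) to cells with the shRNA gave -0.25, with an interval of -0.79 to 0.29 (adjusted p = 0.646). The second LCK probe set, 204890_s_at, read 5.84 and 5.73 with both constructs, 5.86 and 6.33 with CBFA2T3 shRNA, 4.97 and 5.15 with IKKβ(EE), and 5.30 and 5.62 with control shRNA. Here too every array with the shRNA exceeded every array without it, but by less. Its change with CBFA2T3 shRNA against control shRNA was 0.64 ± 0.19 (adjusted p = 0.161, or 0.0422 with the block), and the profiles of the 2 LCK probe sets correlated at 0.836 over the 8 arrays. The adjusted p of the LCK rise with the shRNA alone passed 0.05 on leaving out either control array (0.168 and 0.250), shRNA replicate 2 (0.222) or either IKKβ(EE) array (0.0537 each). The rise with both constructs was lost without control replicate 1 (0.0591) or control replicate 2 (0.0866).

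LCK lies on the forward strand of chromosome 1 (GRCh38.p14, positions 32251265 to 32286165), and RefSeq gives it a pair of promoters, shown here because LCK carried the largest change. No promoter was measured on these arrays. Each sequence below is a window of 300 bases around an annotated start, 5′ to 3′, with matches to the RUNX letters TGTGGT or TGTGGC and the ETS letters AGGAAG in capitals.
Upstream start, chr1:32251015-32251314: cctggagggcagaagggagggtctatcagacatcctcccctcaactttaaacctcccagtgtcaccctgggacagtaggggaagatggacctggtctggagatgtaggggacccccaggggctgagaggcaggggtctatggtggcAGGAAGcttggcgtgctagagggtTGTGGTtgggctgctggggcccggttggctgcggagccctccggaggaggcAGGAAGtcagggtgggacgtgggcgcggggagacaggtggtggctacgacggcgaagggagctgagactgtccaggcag
Downstream start, chr1:32273871-32274170: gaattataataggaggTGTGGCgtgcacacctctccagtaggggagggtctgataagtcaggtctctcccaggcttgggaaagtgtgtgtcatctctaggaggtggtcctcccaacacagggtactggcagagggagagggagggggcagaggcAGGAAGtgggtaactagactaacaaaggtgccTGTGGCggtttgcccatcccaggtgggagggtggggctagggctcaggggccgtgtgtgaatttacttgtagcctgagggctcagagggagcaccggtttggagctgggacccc

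The upstream window held TGTGGT at -80 to -75 and AGGAAG at -104 to -99 and at -29 to -24, counted from the start site. The downstream window held TGTGGC at -234 to -229 and at -64 to -59, and AGGAAG at -96 to -91. Both strands were searched, and these matches lay on the forward strand and did not overlap each other. Of all 35116 such windows in the table, 13.1% held TGTGGT, 18.0% TGTGGC and 33.6% AGGAAG. A match to the NF-κB motif lay at -144 to -135 on the reverse strand of the upstream window, as in 5.91% of all windows, and the downstream window held TGATAA, the GATA letters, at -200 to -195, as in 7.53%. The longest run that the 2 windows share is GAGGCAGGAAGT, 12 bases. The E-box letters CANNTG, searched as well, lay at 5 to 10 in the upstream window and at -45 to -40 in the downstream window. They were found in 68.7% of all windows. All of these are matches of letters only and show no factor bound there.

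FYN, the partner of LCK in T-cell receptor signalling, showed no called change on any of its 3 tested probe sets. The lead, 210105_s_at, read 8.57 and 9.29 with both constructs, 8.89 and 9.26 with CBFA2T3 shRNA, 8.62 and 8.78 with IKKβ(EE), and 8.90 and 9.08 with control shRNA. The group ranges overlapped, except that both IKKβ(EE) arrays lay below the shRNA and control arrays. Its change was -0.06 with both constructs (95% interval -0.62 to 0.51), 0.09 with CBFA2T3 shRNA (-0.48 to 0.65) and -0.29 with IKKβ(EE) (-0.86 to 0.28), each against control shRNA. Probe set 212486_s_at read 6.12 and 6.77 with both constructs, 6.51 and 6.95 with CBFA2T3 shRNA, 5.71 and 6.12 with IKKβ(EE), and 5.93 and 6.34 with control shRNA. There both shRNA arrays lay above both control arrays, a change of 0.59 ± 0.27 with an adjusted p of 0.337, or 0.0227 with the replicate block. Both constructs against IKKβ(EE) alone gave 0.53 ± 0.27 (adjusted p = 0.408, or 0.0412 with the block). Probe set 216033_s_at had changes of -0.14, 0.15 and -0.42 in the same comparisons with control shRNA, none of them called. FYN replicate 2 exceeded replicate 1 in all 4 groups on all 3 of these probe sets. The 2 untested FYN probe sets, 1559101_at and 243006_at, ranged from 4.15 to 5.04 and from 3.58 to 4.36. FYN lies on chromosome 6 (111660332 to 111873452).

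LYN, the kinase that phosphorylates the B-cell receptor chains CD79A and CD79B and also inhibitory receptors, was highest with both constructs on each of its 3 probe sets. The lead, 202625_at, read 8.85 and 9.64 with both constructs, 8.18 and 8.15 with CBFA2T3 shRNA, 8.34 and 8.51 with IKKβ(EE), and 7.89 and 8.09 with control shRNA. The 4 groups did not overlap there, but the 2 arrays with both constructs differed by 0.79, more than the range of the other 6. LYN rose by 1.25 ± 0.24 with both constructs against control shRNA, 2.38-fold, with an interval of 0.70 to 1.81 and an adjusted p of 0.0263. Probe set 202626_s_at read 8.38 and 8.87 with both constructs, 7.88 and 7.94 with CBFA2T3 shRNA, 8.18 and 7.94 with IKKβ(EE), and 7.64 and 7.73 with control shRNA. It rose by 0.94 ± 0.18 with both constructs (1.92-fold, adjusted p = 0.0257). Probe set 210754_s_at read 7.93 and 8.40 with both constructs, 7.36 and 7.33 with CBFA2T3 shRNA, 7.74 and 7.46 with IKKβ(EE), and 7.36 and 7.45 with control shRNA, and rose by 0.76 ± 0.18 with both (1.70-fold, adjusted p = 0.0419). On both as well, each array with both constructs exceeded the other 6 arrays, and the profiles of the 3 probe sets correlated at 0.943 to 0.962.

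Neither construct alone gave a called change of LYN. On the lead probe set it changed by 0.18 with CBFA2T3 shRNA (interval -0.37 to 0.73) and 0.44 with IKKβ(EE) (-0.12 to 0.99), each against control shRNA. Both constructs against CBFA2T3 shRNA alone gave 1.07 ± 0.24 (adjusted p = 0.115, and 0.0241 in the replicate block fit). Both against IKKβ(EE) alone gave 0.82 ± 0.24 (adjusted p = 0.182, and 0.0532 in the block fit). The effect of both constructs minus the sum of the single effects was 0.64 ± 0.34 on the lead probe set (95% interval -0.15 to 1.42), 0.34 ± 0.25 on 202626_s_at and 0.63 ± 0.25 on 210754_s_at. Each had a limma adjusted p of 0.9998, so a departure from additive effects did not pass the test. The interval was -0.24 to 0.93 on 202626_s_at and 0.048 to 1.21 on 210754_s_at, where the unadjusted limma p was 0.0373. The called rise rests on replicate 2 of both constructs and on both control arrays: without that replicate the lead changed by 0.86 (adjusted p = 0.0624), and without control replicate 1 or 2 its adjusted p was 0.127 or 0.128. In a fit of the compared groups alone the adjusted p was 0.0743. The other LYN probe sets lost their calls under the same 4 changes, and 210754_s_at also on leaving out any array of either single-construct group (0.0732 without either shRNA array, 0.0537 without either IKKβ(EE) array). LYN lies on chromosome 8 (55879835 to 56014169).

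BLK, a Src-family kinase of B cells, changed little. Probe set 206255_at read 7.78 and 7.69 with both constructs, 7.75 and 7.75 with CBFA2T3 shRNA, 7.80 and 8.02 with IKKβ(EE), and 7.57 and 7.55 with control shRNA. Both control arrays were the lowest of the 8 and both IKKβ(EE) arrays the highest. The change with IKKβ(EE) against control shRNA was 0.35 ± 0.12, with an interval of 0.07 to 0.63 and an adjusted p of 0.414. With both constructs it was 0.17 (-0.11 to 0.46) and with CBFA2T3 shRNA 0.19 (-0.09 to 0.47), neither called. The other BLK probe set, 210934_at, ranged from 3.59 to 4.23. FGR, on its single probe set 208438_s_at, read 3.37 and 3.48 with both constructs, 3.69 and 3.65 with CBFA2T3 shRNA, 3.50 and 3.76 with IKKβ(EE), and 3.64 and 3.76 with control shRNA. All FGR values lie in the background range, so no change of FGR could be measured. BLK also lies on chromosome 8 (11494387 to 11564599), and FGR on chromosome 1 (27612064 to 27635185).

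YES1, a widely made member of the family, was lowest with the CBFA2T3 shRNA alone. The lead, 202933_s_at, read 7.89 and 8.54 with both constructs, 7.19 and 7.58 with CBFA2T3 shRNA, 8.27 and 8.71 with IKKβ(EE), and 7.99 and 8.30 with control shRNA. Both shRNA arrays lay below the other 6, and the ranges of the remaining 3 groups overlapped. The change with CBFA2T3 shRNA against control shRNA was -0.77 ± 0.26, or 0.588 of the control level (adjusted p = 0.210, or 0.0127 with the replicate block). Both constructs against CBFA2T3 shRNA alone gave 0.84 ± 0.26 (adjusted p = 0.215, or 0.0103 with the block). Both against control shRNA gave 0.07, with an interval of -0.53 to 0.68. Probe set 202932_at read 6.83 and 7.50 with both constructs, 6.44 and 6.71 with CBFA2T3 shRNA, 7.30 and 7.60 with IKKβ(EE), and 7.01 and 7.13 with control shRNA, and its profile correlated with that of the lead at 0.983. It was not called in any of the 6 comparisons in either fit. In each group replicate 2 of YES1 exceeded replicate 1, on the lead by 0.31 to 0.65. The untested YES1 probe set 210917_at ranged from 2.70 to 3.01. YES1 lies on chromosome 18 (721588 to 812753).

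SRC, the member that gave the family its name, differed between its probe sets. The lead, 213324_at, read 7.15 and 8.06 with both constructs, 6.43 and 6.54 with CBFA2T3 shRNA, 6.98 and 7.40 with IKKβ(EE), and 6.77 and 6.71 with control shRNA. The 4 arrays with IKKβ(EE) lay above the 4 without it, and the 2 arrays with both constructs were 0.91 apart. The change with both constructs against control shRNA was 0.86 ± 0.28, 1.82-fold (adjusted p = 0.100, or 0.0265 with the replicate block). Against CBFA2T3 shRNA alone it was 1.12 ± 0.28 (adjusted p = 0.149, or 0.0315 with the block), and it rests on 1 array: it was 1.57 without replicate 1 of both constructs (adjusted p = 0.0104) and 0.66 without replicate 2 (0.472), where the lone array was assumed to vary like the other groups. Against control shRNA the same omissions gave 1.31 (adjusted p = 0.00944) and 0.41 (0.400). Probe set 1558211_s_at read 5.47 and 5.16 with both constructs, 5.37 and 5.35 with CBFA2T3 shRNA, 5.50 and 5.50 with IKKβ(EE), and 5.40 and 5.57 with control shRNA. It followed no such pattern, and the profiles of the 2 tested SRC probe sets correlated at -0.462. The other 5 SRC probe sets, 1565082_x_at, 221284_s_at, 221281_at, 1558210_at and 1565080_at, did not pass the floor and ranged from 2.35 to 5.02. SRC lies on chromosome 20 (37344699 to 37406050).

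CSK, the inhibitor of the family, was higher wherever the CBFA2T3 shRNA was present. Its single probe set 202329_at read 10.60 and 10.70 with both constructs, 10.60 and 10.56 with CBFA2T3 shRNA, 10.11 and 10.18 with IKKβ(EE), and 10.06 and 9.96 with control shRNA. The replicates were close, at most 0.10 apart, and the 4 shRNA arrays did not overlap the 4 others. CSK rose by 0.64 ± 0.11 with both constructs against control shRNA, 1.55-fold, with an interval of 0.38 to 0.89 and an adjusted p of 0.0209. With CBFA2T3 shRNA alone the change was of like size, 0.57 ± 0.11 or 1.49-fold (0.31 to 0.83), but missed the threshold (adjusted p = 0.0717, or 0.0220 with the replicate block). With IKKβ(EE) alone it was 0.13 (-0.13 to 0.39). Against IKKβ(EE) alone both constructs gave 0.50 ± 0.11 (adjusted p = 0.124, or 0.0418 with the block), and against CBFA2T3 shRNA alone 0.06 (-0.20 to 0.32). The CSK call with both constructs was lost without control replicate 1 (adjusted p = 0.0856), control replicate 2 (0.136) or replicate 2 of both constructs (0.116), and in a fit of the compared groups alone (0.0784). CSK lies on chromosome 15 (74782080 to 74803197).

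**Figure D2:**
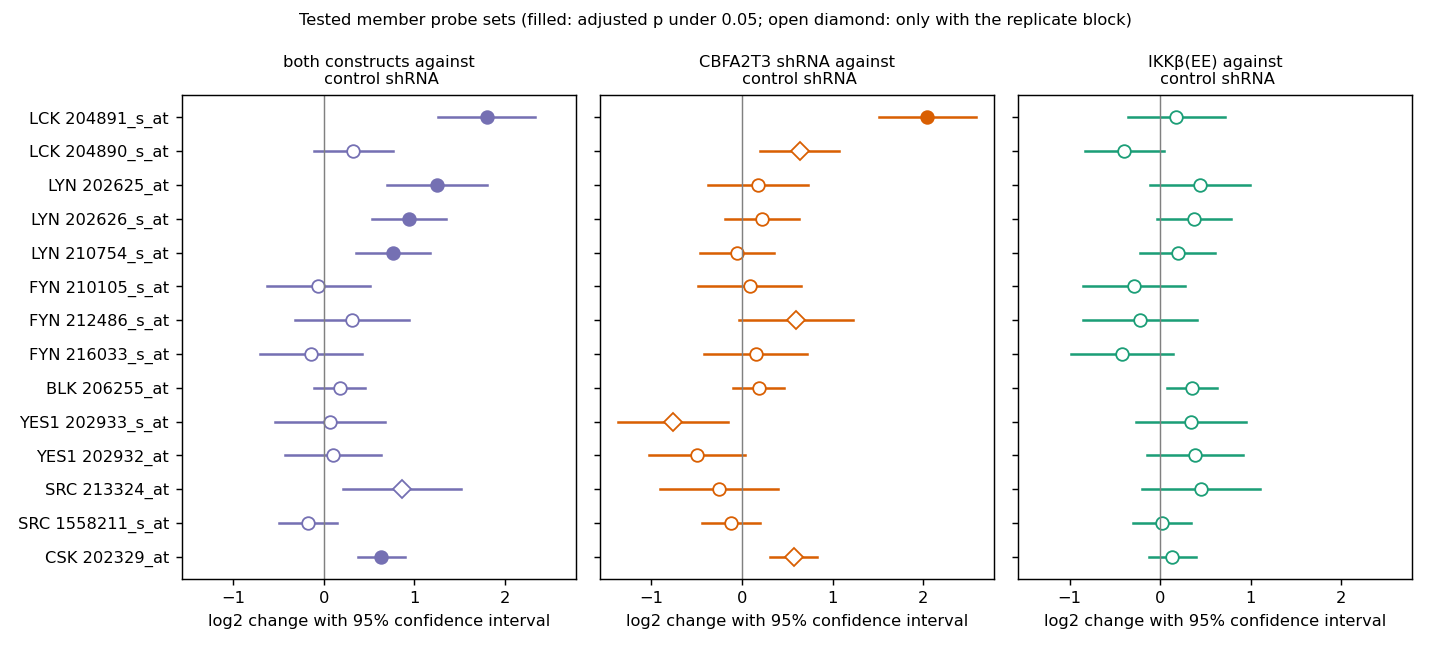
Log2 change (x axis) with its 95% confidence interval for the 14 tested probe sets (y axis) with both constructs, CBFA2T3 shRNA or IKKβ(EE), each against control shRNA. Filled points had an adjusted p under 0.05 and open diamonds only with the replicate block; LCK, all 3 LYN probe sets and CSK are filled with both constructs, LCK alone with CBFA2T3 shRNA, and none with IKKβ(EE).

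Setting both constructs against either one alone asked what each added to the other. In both of these comparisons limma called 0 of the 14 member probe sets, with 6 at an unadjusted p under 0.05 in each. Of all 24481 probe sets, 3621 had such an unadjusted p against IKKβ(EE) alone and 3711 against CBFA2T3 shRNA alone. The share called over all probe sets was 0.143% against IKKβ(EE) alone and 0.862% against CBFA2T3 shRNA alone. With the replicate block 4 of 14 were called in each, all higher, beside 4.56% of all probe sets against IKKβ(EE) alone and 5.08% against CBFA2T3 shRNA alone. Against IKKβ(EE) alone the 4 were both LCK probe sets, FYN 212486_s_at and CSK. Against CBFA2T3 shRNA alone they were the LYN probe sets 202625_at and 210754_s_at, YES1 202933_s_at and SRC 213324_at. The interaction was called for 0 of 14 by limma in either fit, beside 0.0123% of all probe sets in both. An unadjusted p under 0.05 was reached by 1 of 14 without the block, LYN 210754_s_at, beside 531 of all 24481 probe sets. With the block it was 3 of 14, beside 1358 of all 24481.

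The effect of each construct in the absence and in the presence of the other rests on separate arrays. The shRNA changes with and without IKKβ(EE) had the same sign for 11 of 14 member probe sets and correlated at 0.848 over them, against 74.2% of the same sign and 0.709 over all tested probe sets. The IKKβ(EE) changes with and without the shRNA had the same sign for 11 of 14 and correlated at 0.795, against 74.5% and 0.799 over all. The members stood near the general level in both respects. Averaged over both backgrounds, 4 arrays against 4, a comparison added after the data had been seen, the shRNA raised 3 of 14 member probe sets and lowered 0, beside 7.60% of all probe sets called. These were LCK 204891_s_at (1.83 ± 0.16, adjusted p = 0.00530), LCK 204890_s_at (0.68 ± 0.13, adjusted p = 0.0272) and CSK (0.54 ± 0.08, adjusted p = 0.0141). Averaged the same way, IKKβ(EE) changed 0 of 14 by limma, beside 2.90% of all probe sets, with LYN 202625_at at 0.76 ± 0.17 (adjusted p = 0.0616) and SRC 213324_at at 0.78 ± 0.20 (adjusted p = 0.0829).

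**Figure D3:**
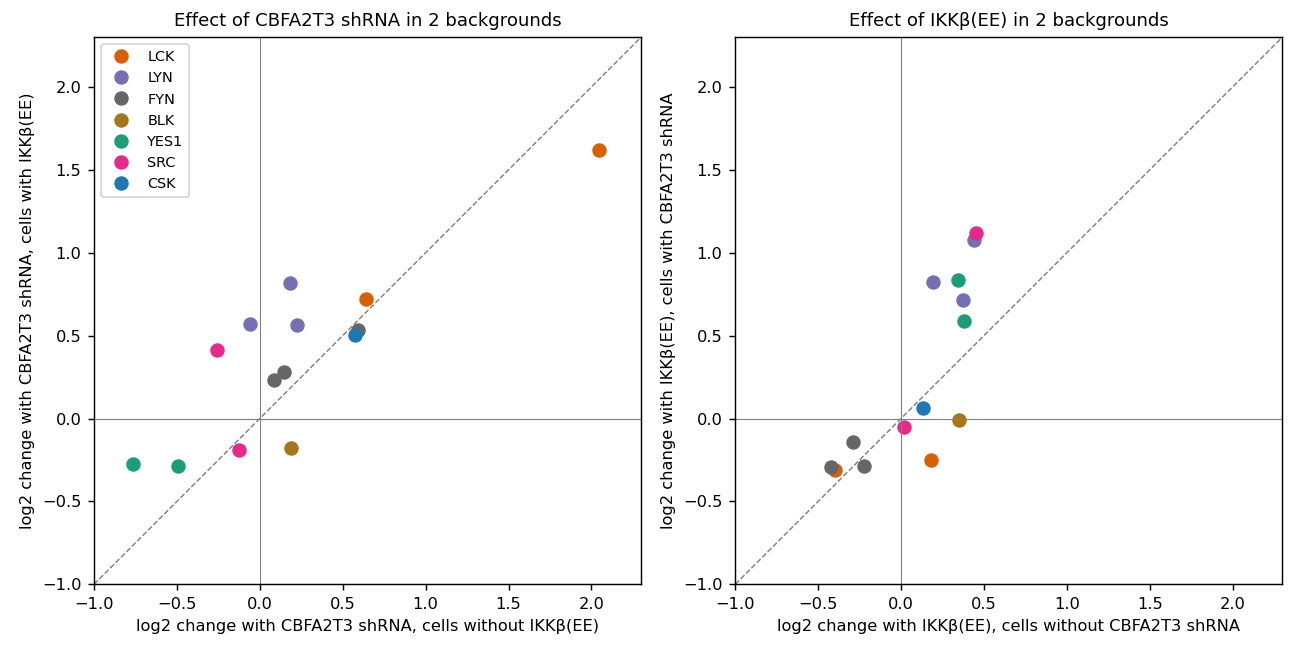
Each point is 1 tested member probe set, with its log2 change in cells without the other construct on the x axis and with it on the y axis, for CBFA2T3 shRNA (left) and IKKβ(EE) (right); the dashed line marks equal changes. CSK and the second LCK probe set lie near the line on the left with the lead LCK probe set below it, and the LYN, YES1 and lead SRC probe sets lie above it on the right.

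The genes whose levels ran most like a called member were sought among 11438 other genes by Pearson's r over the 8 arrays. LCK was most like PDRG1 (r = 0.994), NKG7 (0.992) and HEATR5A (0.990). NKG7, a granule protein of cytotoxic lymphocytes, read 5.40 and 5.66 with both constructs, 5.43 and 5.69 with CBFA2T3 shRNA, 4.60 and 4.69 with IKKβ(EE), and 4.76 and 4.51 with control shRNA. NKG7 lay under the floor of log2 5 on every array without the shRNA. It became a candidate only through the arrays where it is high, so nothing is read from its likeness to LCK. It is one of 7 natural killer cell markers looked at, of which 3 passed the floor. The median of the 7 was 4.80 and 4.63 with both constructs, 4.76 and 4.63 with CBFA2T3 shRNA, 4.60 and 4.63 with IKKβ(EE), and 4.76 and 4.51 with control shRNA, with overlapping groups. Their summed level, which holds NKG7, was 7.54 and 7.64 with both constructs, 7.56 and 7.61 with CBFA2T3 shRNA, 7.37 and 7.29 with IKKβ(EE), and 7.54 and 7.33 with control shRNA, as a log2 value. NCAM1, another of the 7, averaged 4.83 with both constructs, 5.14 with CBFA2T3 shRNA, 4.88 with IKKβ(EE) and 5.16 with control shRNA, and did not follow NKG7. LYN was most like KYNU (0.993), an enzyme of tryptophan breakdown, HS3ST3B1 (0.991), an enzyme that modifies heparan sulfate, and TYW5 (0.991). CSK was most like STX3 (0.986), a membrane fusion protein, STARD3NL (0.983) and EOLA1 (0.980). All these values describe 8 arrays that share 4 conditions.

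Among genes that set the activity of Src-family kinases, 24 of 31 listed genes were tested on 1 probe set each, and with both constructs against control shRNA 0 rose and 2 fell. Over all genes on 1 probe set each, 8.73% were called in this comparison. PAG1, the membrane adaptor that brings CSK to its targets, read 11.22 and 11.04 with both constructs and 11.63 and 11.96 with control shRNA. It fell by 0.66 ± 0.15 on the log2 scale (adjusted p = 0.0387), the opposite direction to CSK. UBASH3B, a phosphatase that acts on SYK and related kinases, read 10.65 and 10.09 with both constructs and 11.21 and 11.44 with control shRNA, and fell by 0.96 ± 0.23 (adjusted p = 0.0445). The median change of the 24 was 0.09, against -0.03 over all probe sets. With the replicate block 4 of the 24 rose and 3 fell, where 24.1% of all genes were called, so that the list stood near the general share. The rises were those of CBLB (1.27 ± 0.53), a ubiquitin ligase, UNC119 (0.72), a chaperone of lipid-anchored proteins, and the phosphatases PTPN2 (0.47) and PTPN6 (0.33), and PTPRE (-0.45) joined the falls. PTPRC, the phosphatase that opens the kinases, read 11.03 and 11.18 with both constructs and 10.71 and 10.81 with control shRNA, and was not called.

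Of 33 genes of early B-cell receptor signalling, in which LYN and BLK act, 26 were tested, and with both constructs against control shRNA 2 were called higher and 0 lower, no more than the 8.73% called over all genes. One of them, DAPP1, an adaptor downstream of PI3 kinase, read 5.48 and 7.0 with both constructs, 4.61 and 4.51 with CBFA2T3 shRNA, 5.43 and 5.54 with IKKβ(EE), and 4.0 and 4.41 with control shRNA. It lay under the floor on all 4 arrays without IKKβ(EE) and entered the test only through the arrays where it is high, so nothing is read from its call. CD72, an inhibitory co-receptor, read 8.43 and 8.41 with both constructs, 8.11 and 8.35 with CBFA2T3 shRNA, 8.39 and 8.86 with IKKβ(EE), and 7.40 and 7.80 with control shRNA, the control arrays being the lowest of the 8. It rose by 0.82 ± 0.20 with both constructs (adjusted p = 0.0480). Its change was larger with IKKβ(EE) alone, 1.02 ± 0.20 (adjusted p = 0.136, or 0.0113 with the replicate block), and was 0.63 ± 0.20 with CBFA2T3 shRNA alone (adjusted p = 0.186, or 0.0363 with the block). SYK, the kinase that acts next after LYN, read 10.10 and 9.90 with both constructs and 10.34 and 10.39 with control shRNA and was not called. The median change of the 26 was 0.15. PRKCB, a kinase further downstream, had -0.67 ± 0.17 with both constructs (adjusted p = 0.0554) and -0.78 ± 0.17 with CBFA2T3 shRNA (adjusted p = 0.0895), each against control shRNA, and passed the test with the replicate block in both (0.0217 and 0.0290). In the block fit of both constructs against control shRNA, 3 of the 26 were called higher and 2 lower, where 24.1% of all genes were called. The higher ones were DAPP1, CD72 and PIK3CD (0.59), and the lower ones PRKCB and CD79B (-0.37).

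Of 27 genes of early T-cell receptor signalling, in which LCK acts, 11 were tested, and limma without the block called 0 in any comparison. With both constructs against control shRNA 4 of the 11 had an unadjusted p under 0.05, near the 27.7% of all genes that did, and the median change was -0.09. The values at either end were those of SH2D2A, an adaptor that binds LCK (1.02 ± 0.32, adjusted p = 0.0913, or 0.0439 with the replicate block), and CD247, the receptor's zeta chain (-0.42 ± 0.15, adjusted p = 0.122). SKAP2, another adaptor, had -0.34 ± 0.12 (adjusted p = 0.112, or 0.0391 with the block), and the block fit also called it lower with CBFA2T3 shRNA against control shRNA and with both constructs against IKKβ(EE) alone. ZAP70, the kinase that LCK activates, read between 3.98 and 4.37 on all 8 arrays, in the background range. Of the kinases related to the family, FRK and MATK were tested, and without the block limma called neither in any comparison. FRK read 4.73 and 6.12 with both constructs, 3.63 and 4.39 with CBFA2T3 shRNA, 6.38 and 7.45 with IKKβ(EE), and 4.81 and 5.43 with control shRNA. It was highest with IKKβ(EE) alone, a change of 1.79 ± 0.53 against control shRNA (adjusted p = 0.326, or 0.00350 with the block). With CBFA2T3 shRNA against control shRNA FRK changed by -1.11 ± 0.53 (adjusted p = 0.359, or 0.0162 with the block). Both constructs gave -1.49 ± 0.53 against IKKβ(EE) alone (adjusted p = 0.255, or 0.0154 with the block). Against CBFA2T3 shRNA alone they gave 1.42 ± 0.53 (adjusted p = 0.279, or 0.00798 with the block). FRK lay under the floor of log2 5 on both shRNA arrays, control replicate 1 and replicate 1 of both constructs, so these changes involve values in the background range. In the 5 comparisons other than both constructs against control shRNA, limma without the block called 0 genes of the regulator and B-cell receptor lists. An unadjusted p under 0.05 was reached by 1 to 6 of the 24 regulators and 1 to 7 of the 26 B-cell receptor genes. Over all genes this share was 16.5% with CBFA2T3 shRNA and 9.99% with IKKβ(EE), each against control shRNA. For both constructs it was 14.4% against IKKβ(EE) alone and 16.2% against CBFA2T3 shRNA alone, and in the interaction 1.90%. With the block and CBFA2T3 shRNA against control shRNA, 1 regulator was higher (PTPN6) and 1 lower (PTPRE), and 4 B-cell receptor genes were higher (CD72, PLCG2, SOS1 and CD38) and 1 lower (PRKCB), where 7.78% of all genes were called. With the block and IKKβ(EE) against control shRNA, CD72 and PIK3CD were higher, where 3.67% were called. Of the B-cell receptor genes the block fit also called PRKCB lower with both constructs against IKKβ(EE) alone (4.60% over all genes). It called DAPP1 higher with both against CBFA2T3 shRNA alone (5.55%). Nothing is read from this call either, since DAPP1 entered the test only through the arrays with IKKβ(EE), where it is high.

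**Figure D4:**
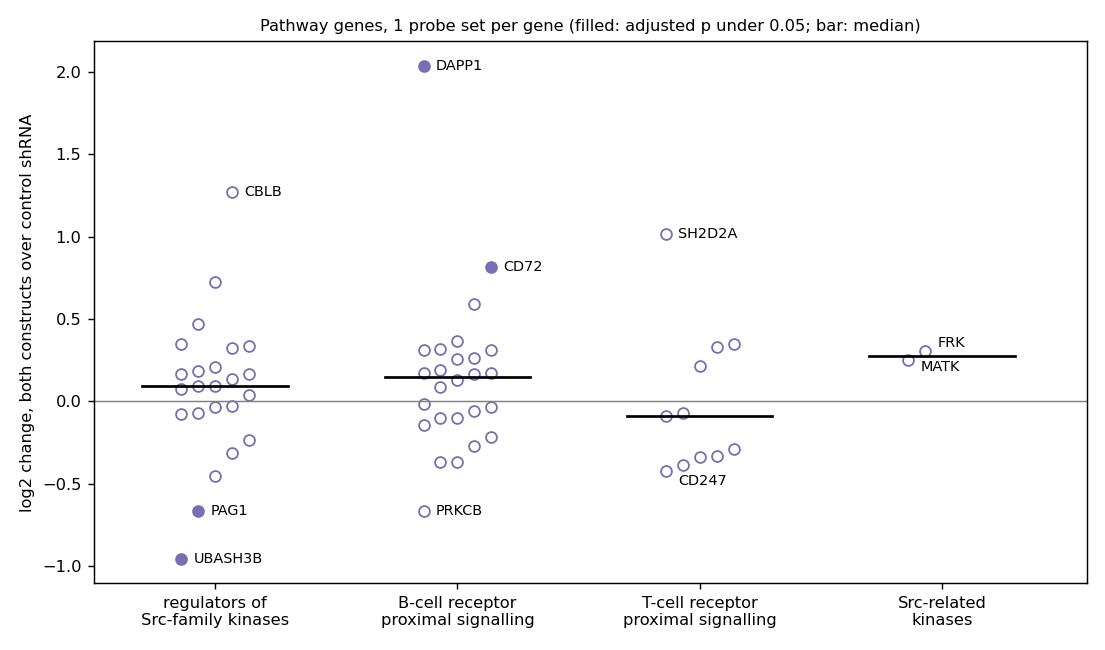
Log2 change with both constructs over control shRNA (y axis) for each tested gene of 4 lists (x axis), 1 probe set per gene; filled points had an adjusted p under 0.05 and bars are medians. DAPP1 and CD72 are filled above 0 and PAG1 and UBASH3B below it, and no T-cell receptor gene is filled.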

How the data were processed

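Total RNA of Reh cells was hybridized to Affymetrix U133 Plus 2.0 arrays. The deposited log2 intensities were made by the authors with RMA, per the submitters' processing notes; RMA gives all arrays 1 shared distribution, which removes shifts shared by most transcripts. Log base 2 was inferred, as values reach 14.6, beyond a natural log of scanner readings. No detection calls were given, so a floor of log2 5 on at least 2 arrays was set, and 62 control and 30132 dim probe sets were left out.

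Group means were fitted with limma 3.58.1 in R 4.3.3 on all 8 arrays (4 residual and 3.54 prior degrees of freedom), with two-sided tests and Benjamini-Hochberg adjustment over the 24481 probe sets of each of 6 comparisons. Errors after ± are standard errors of the fit without the replicate block. Precision is limited by how few arrays there are: the smallest exact permutation p for 2 against 2 is 0.333.

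Differences between replicates 2 and 1 correlated at 0.344 to 0.577 over the 6 pairs of groups. The numbers were therefore taken to pair the arrays, although the labels name no shared day, and a replicate block was fitted as well.

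All member probe sets are named. From each pathway list, called genes up to 3 at either end are named, or the ends where none was called; others were picked after their values were seen. The members and lists were chosen with earlier results of these data known. Promoter windows and gene positions are RefSeq's, GRCh38.p14. The fits were tested on simulated data. Alternatives were other floors, moderation, weights, normalization, 1 probe set per gene, the compared groups alone and each array left out.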

Additional observations from a re-analysis of the deposited data

How the results depend on the processing

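The 6 called member results kept their direction in all 101 alternatives run on them and stayed called in 74. Of 652 alternatives of uncalled results of the lead probe sets 17 were called, a count that leaves out the uncalled results of the other probe sets. The number of member probe sets called with CBFA2T3 shRNA against control shRNA, 1, became 5 with the replicate block, 2 with array weights, 2 with trend and robust moderation, 3 when averaged over both backgrounds, and 0 to 1 with 1 array left out (0 without either control array, either IKKβ(EE) array or shRNA replicate 2). With both constructs against control shRNA the 5 became 3 with 1 probe set per gene, 1 with the compared groups alone, and 0 (without either control array) to 6 (without replicate 1 of both constructs). Against IKKβ(EE) alone the 0 became 4 with the replicate block, 1 with no floor and up to 2 with 1 array left out; against CBFA2T3 shRNA alone the 0 became 4 with the block and up to 4, both maxima without replicate 1 of both constructs. The replicate block raised the share called over all probe sets as well. With CBFA2T3 shRNA against control shRNA it went from 0.690% to 7.72%, and was 7.60% in the averaged fit. Against IKKβ(EE) alone it went from 0.143% to 4.56%, and against CBFA2T3 shRNA alone from 0.862% to 5.08%. Shares under the other alternatives are not given here, so those counts are not read as a result about the members. Signs turned only in uncalled values, given here for the lead probe sets. Averaged over both backgrounds, the shRNA change of SRC was 0.078 and the IKKβ(EE) change of LCK -0.036. With cyclic loess, BLK with both constructs against CBFA2T3 shRNA alone was 0.031. With 1 array left out, FYN ranged from -0.10 to 0.27 with CBFA2T3 shRNA and from -0.42 to 0.30 with both constructs against control shRNA, from -0.13 to 0.59 against IKKβ(EE) alone, from -0.51 to 0.22 against CBFA2T3 shRNA alone and from -0.22 to 0.51 in the interaction. YES1 ranged from -0.25 to 0.40 with both constructs against control shRNA and from -0.60 to 0.053 against IKKβ(EE) alone. SRC ranged from -0.040 to 0.86 against IKKβ(EE) alone, LCK from -0.56 to 0.065 and BLK from -0.060 to 0.037 against CBFA2T3 shRNA alone. The cause was not tested. The replicate block changed no call of the 6 called results.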
